A study of Mus musculus with 21 samples.

Results

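Integrins and collagens meet at the cell surface: integrins are pairs of an alpha and a beta subunit that hold a cell to its matrix, and collagens are among the matrix proteins they bind. The genes described here are the integrin subunits and most collagens of a mouse embryonic stem cell line, 2TS22C, followed through 4 lines and 2 media. They were chosen by symbol: rows named Itga or Itgb with a number, the lettered alpha subunits Itgav, Itgae, Itgal and Itgam, and rows named as collagen chains, without Col1a1, Col1a2, Col3a1, Col5a1, Col5a2, Col4a1 and Col4a2. Of 16443 genes in the table, 38 met this rule, 18 integrins and 20 collagens. The rule does not divide the collagens by the kind of fibre they form: 5 of the 20 (Col2a1, Col5a3, Col11a1, Col24a1 and Col27a1) are fibril-forming chains and 15 are not.

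The study asked how cells carrying an engineered SOX17 compare with cells carrying SOX2. In 2TS22C, doxycycline turns off the Sox2 supply that the line lives on. The NTC cells were not transduced, are labelled WT and carry no doxycycline label, so every line comparison with NTC also compares transduction and doxycycline with their absence. The SOX2, FNV and miniSOX lines were transduced with lentivirus for SOX2, for SOX17FNV (an engineered SOX17) or for a construct labelled miniSOX, their endogenous SOX2 was silenced, and they received DOX. Each line was grown in mouse serum/Lif medium (SL) and in 2i, the same medium with inhibitors of MEK and GSK3 added. The 21 libraries comprised 2 of each line in SL and, in 2i, 3 of NTC, 4 of SOX2, 4 of FNV and 2 of miniSOX. All derive from a single cell line, and the labels do not say whether the libraries numbered 1 and 2 came from separate cultures.

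Values are normalised whole numbers per gene that the authors made nearly equal in their distribution between libraries, with totals between 14044316 and 14047262, so read depth is unknown and a value means a rank within its library as much as an amount. The libraries came in 2 waves, 12 in the first (NTC, SOX2 and FNV, replicates 1 and 2) and 9 in the second (miniSOX, and the 2i libraries headed p21 and p31). No label names p21 or p31. They were matched by group only to the samples labelled biological replicates 2 and 3. Over the 38 genes, first-wave replicates in 2i differed by a median of 0.116 to 0.181 on the log2 scale, and from the p21 and p31 libraries by 0.281 to 0.727. In SL, NTC, SOX2 and FNV have only first-wave pairs, which differed by 0.237, 0.327 and 0.286. The labels do not say whether these pairs came from separate cultures, so P-values in SL may measure technical spread. Calls that end when each first-wave pair is averaged into 1 library are given as such. Sox2 was 533 to 2697 in NTC, 921 to 1509 in SOX2 and 19 to 60 in FNV and miniSOX. These values do not tell endogenous from introduced Sox2, so the labelled silencing can be read only in FNV and miniSOX. Sox17 was 0 to 6 in NTC and SOX2 and 1792 to 30391 in FNV and miniSOX. All 10 markers of pluripotent cells were detected in every group, with sums of 48828 to 92834 per library.

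Alpha subunits divide by what they bind (laminin, the RGD sequence of fibronectin and vitronectin, collagen, or leukocyte counter-receptors), while the beta subunit Itgb1 pairs with most of them. Embryonic stem cells are known to rest on laminin and fibronectin through Itgb1 pairs, mainly with Itga6 and Itga5. Collagens share a triple helix built of triplets of residues that each begin with glycine. In fibril-forming chains the main helix is long and has few breaks or none, and network, beaded-filament, fibril-associated (FACIT) and membrane collagens have shorter or more often broken helices.

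The length of the unbroken stretch was read from the coding sequences of the GENCODE M21 annotation (mm10). In the longest coding isoform of each gene, the longest unbroken run of glycine-led triplets was 216 to 339 triplets in the 5 fibril-forming collagens and 23 to 113 in the other 15. The lines below show the first 45 bases of that run in 3 collagens described at length here, 1 fibril-forming and 2 not, with each glycine codon in capitals. The run has 337 triplets from residue 478 of 1739 in Col5a3 (chromosome 9), 30 from residue 953 of 1774 in Col18a1 (chromosome 10) and 37 from residue 1442 of 2640 in Col6a5 (chromosome 9).
Col5a3: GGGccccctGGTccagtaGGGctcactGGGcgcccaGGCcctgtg
Col18a1: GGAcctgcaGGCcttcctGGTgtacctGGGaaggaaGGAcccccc
Col6a5: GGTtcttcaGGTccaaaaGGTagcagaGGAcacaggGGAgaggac

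**Figure D1:**
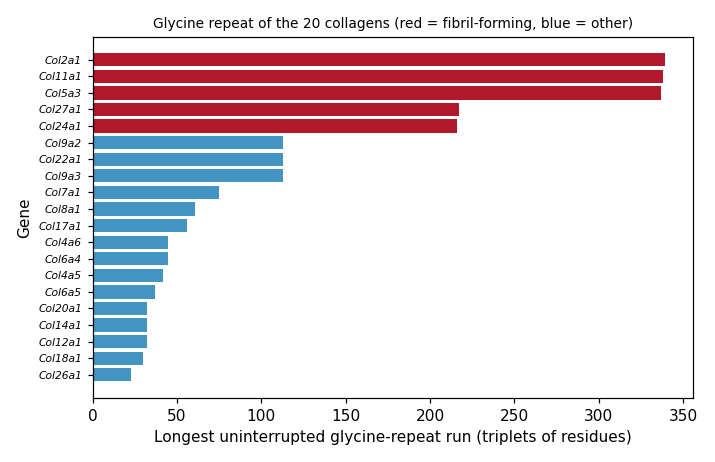
Longest unbroken run of glycine-led triplets (horizontal axis, in triplets of residues) in the longest coding isoform of each of the 20 collagens. The 5 fibril-forming genes (red) reach 216 to 339 triplets and the 15 others (blue) 23 to 113.

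The alpha integrins share a short stretch just inside the membrane, glycine, 2 phenylalanines, lysine and arginine, where the alpha and beta tails touch. An annotated coding isoform of 10 of the 12 alpha members holds exactly these residues. The lines below give it, 33 bases each with the 5 codons in capitals, for the 3 alpha subunits highest per length in these cells; it begins 35 residues before the end of the protein in Itga3 (chromosome 11), 52 in Itga6 (chromosome 2) and 26 in Itga5 (chromosome 15).
Itga3: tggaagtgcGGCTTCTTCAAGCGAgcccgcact
Itga6: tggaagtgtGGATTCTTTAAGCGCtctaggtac
Itga5: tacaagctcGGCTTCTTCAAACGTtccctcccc

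Per kilobase of exon, Itgb1 led the integrins in every group, with group means from 736.5 (FNV in SL) to 1790 (NTC in SL). Itga6 reached at most 414 per kb and Itga5 at most 359, both in FNV in 2i, followed by Itgb5 at 286, Itga3 at 183 and Itgav at 120. The other 12 integrins stayed at or below 116 per kb. Among the collagens Col18a1, which yields endostatin and carries heparan sulfate in basement membranes, stood far above the rest: its group means ran from 194.7 per kb in FNV in 2i to 2340 in miniSOX in SL, against at most 182 for Col9a2 and 54.0 for Col5a3. The remaining 17 collagens stayed below 54.0 per kb in every group. Of the 38 genes, 5 were listed at 0 in some library: Itgb8 in 11 libraries, Col4a6 in 10, Col8a1 in 9, Col12a1 in 4 and Col24a1 in 3.

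**Figure D2:**
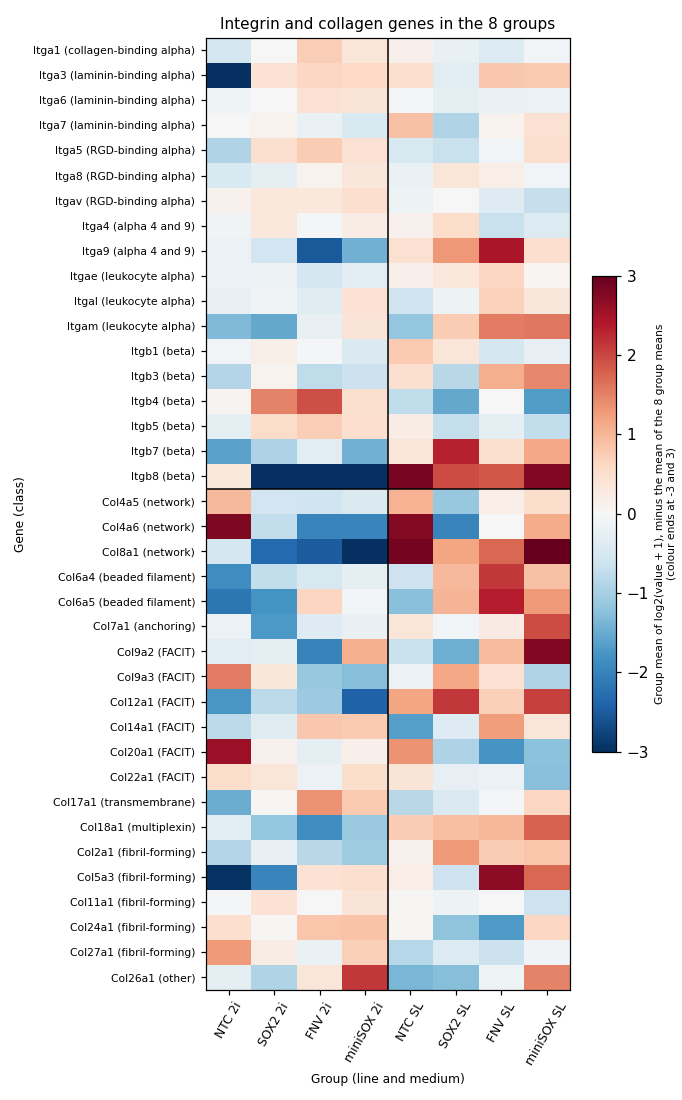
Group mean of log2(value + 1) of each of the 38 genes in the 8 groups (columns, line and medium), minus the mean of the gene's 8 group means (colour, ending at -3 and 3). Itga3 stands low in NTC in 2i alone, Itgb8 and Col8a1 are low across the transduced lines in 2i, and Col6a5 is lowest in NTC and SOX2 in 2i and in NTC in SL.

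In 2i, all 3 transduced lines carried more Itga3 and Itga5 than NTC, and the collagens moved both ways. In SOX2, 7 of the 38 genes were higher than in NTC (18.4%, beside 14.4% of all genes) and 7 lower (18.4%, beside 14.3%), the higher ones being Itga3, Itga5, Itgb3, Itgb4, Itgb5, Col6a4 and Col17a1. In FNV, 14 were higher (36.8%, beside 19.7%) and 8 lower (21.1%, beside 20%), and in miniSOX 11 were higher (28.9%, beside 14.3%) and 3 lower (7.89%, beside 13.5%). The 3 lower in miniSOX, Itgb8, Col4a6 and Col8a1, were listed at 0 in both miniSOX libraries. Of the 18 integrins, 5, 9 and 6 rose in SOX2, FNV and miniSOX and 1, 2 and 1 fell, while of the 20 collagens 2, 5 and 5 rose and 6, 6 and 2 fell. These comparisons share the NTC libraries. The count of 14 for SOX2 was 8 without NTC replicate 1 and 9 without NTC replicate 2, and that of 14 for miniSOX was 9 and 8 without miniSOX replicates 1 and 2.

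Among the transduced lines in 2i, Itgam and Col6a5 separated FNV and miniSOX from SOX2. Against SOX2, FNV had 9 members higher (23.7%, beside 12.4% of all genes) and 3 lower (7.89%, beside 12.9%), and miniSOX had 5 higher (13.2%, beside 7.32%) and 3 lower (7.89%, beside 7.57%). Between miniSOX and FNV, 3 were higher in miniSOX (7.89%, beside 3.81%) and 1 lower (2.63%, beside 3.85%). With 2 miniSOX libraries these counts are fragile: the 8 against SOX2 became 4 and 3 without miniSOX replicates 1 and 2, and the 4 against FNV became 1 and 0, and 2 without FNV p31.

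In SL, Itgam and Col6a5 were higher than NTC in each transduced line. SOX2 had 5 members higher than NTC (13.2%, beside 7.35% of all genes) and 5 lower (13.2%, beside 7.63%), FNV 7 higher (18.4%, beside 14.2%) and 3 lower (7.89%, beside 15.8%), and miniSOX 7 higher (18.4%, beside 9.44%) and 4 lower (10.5%, beside 10.2%). Against SOX2, FNV had 10 higher (26.3%, beside 10.2%) and 3 lower (7.89%, beside 11.2%), and miniSOX 8 higher (21.1%, beside 10.4%) and 3 lower (7.89%, beside 11.2%). Against FNV, miniSOX had 2 higher (5.26%, beside 7.40%) and 5 lower (13.2%, beside 7.80%). First-wave libraries alone gave 19 members for SOX2 and 17 for FNV against NTC in SL, beside 14 and 21 in 2i, so the counts do not order the media. With 2 libraries a group, leaving out 1 library took the 10 of SOX2 against NTC to 5 without either NTC library and 6 without either SOX2 library, and the 11 of miniSOX against NTC to 6 without NTC replicate 1 or miniSOX replicate 1. The 13 of FNV against SOX2 became 5 without SOX2 replicate 2, 7 without FNV replicate 1 and 6 without FNV replicate 2. The 11 of miniSOX against SOX2 became 5 to 7 without any 1 of the 4 libraries, and the 7 of miniSOX against FNV became 1 to 3.

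Between the media, Itgb4 passed as higher in 2i in every line, and Col6a5, Col2a1 and Col8a1 as lower. Itgb4 and Col6a5 passed least firmly in NTC. In NTC, 2 members were higher in 2i than in SL (5.26%, beside 11.9% of all genes) and 9 lower (23.7%, beside 12.8%). In SOX2, 7 were higher (18.4%, beside 22.3%) and 12 lower (31.6%, beside 22.5%), in FNV 9 higher (23.7%, beside 20.3%) and 12 lower (31.6%, beside 20.4%), and in miniSOX 6 higher (15.8%, beside 17.0%) and 13 lower (34.2%, beside 16.4%). Of the 20 collagens, 1, 1, 2 and 2 were higher in 2i in NTC, SOX2, FNV and miniSOX, and 4, 7, 7 and 8 lower. The median change of the collagens was -0.17, -0.04, -1.18 and -1.07 on the log2 scale, beside medians over all genes of 0.03 or closer to 0. The 11 of NTC became 6 and 4 without NTC replicates 1 and 2 of SL. The change of FNV against SOX2 differed between 2i and SL for 9 members (23.7%, beside 20.8% of all genes), and for 4 or 5 when any 1 of FNV replicates 1 and 2 of 2i or of the SOX2 and FNV libraries of SL was left out.

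**Figure D3:**
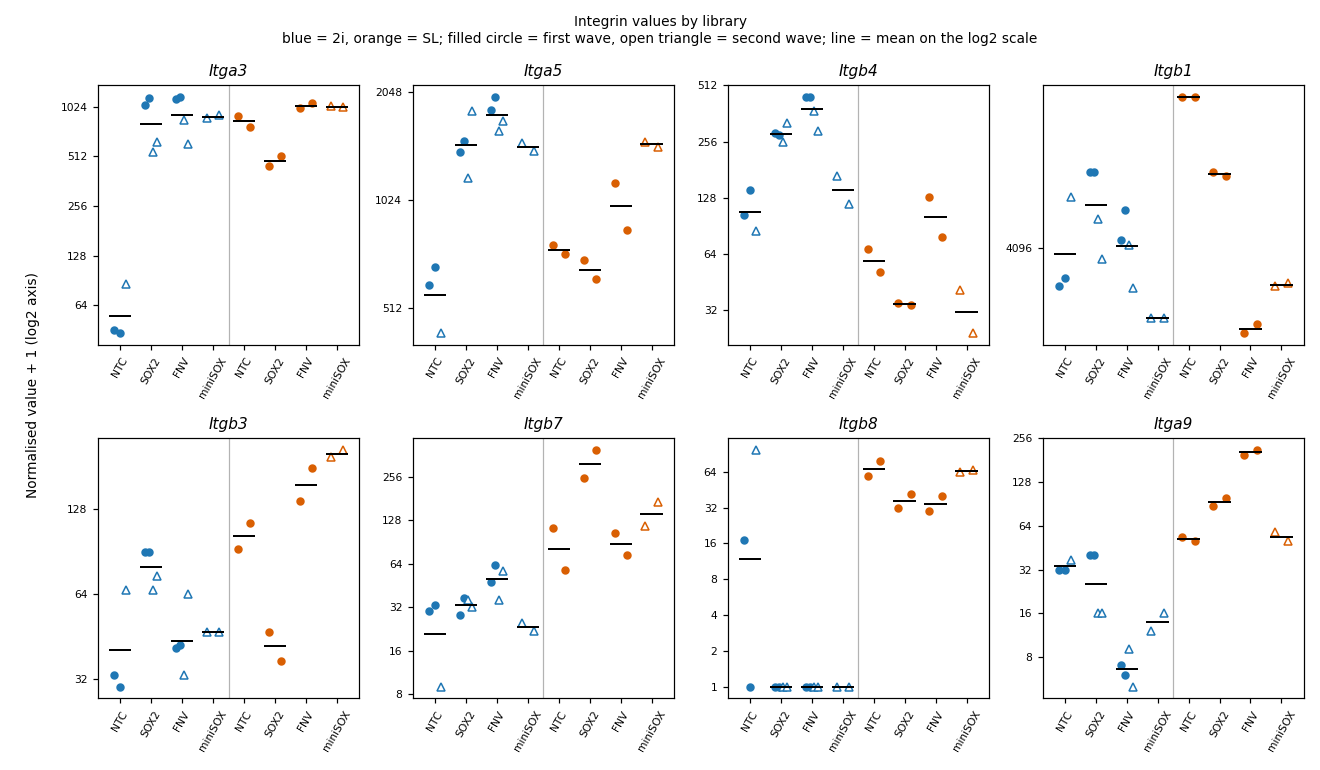
Values plus 1 (vertical axes, log2 scale) of 8 integrin genes in each of the 21 libraries, by line, with 2i in blue and SL in orange, circles for the first wave and triangles for the second, and a line at the mean on the log2 scale. Itga3 lies at 42 to 85 in NTC in 2i and at 444 or more in every other group, and Itgb8 is listed at 0 in all 10 libraries of the transduced lines in 2i.

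Itga3, the laminin-binding alpha subunit of epithelial cells, had the widest difference between lines of any integrin present throughout. In 2i it was 44, 42 and 85 in NTC (replicates 1 and 2, then p31), 1049, 1162, 547 and 622 in SOX2 (replicates 1 and 2, then p21 and p31), 1136, 1178, 855 and 613 in FNV, and 873 and 913 in miniSOX. Every one of the 10 transduced libraries lay above all 3 NTC libraries. The log2 change against NTC was 3.93 (SE 0.27, adjusted p = 3.24e-07) in SOX2, 4.12 (SE 0.27, adjusted p = 4.91e-08) in FNV and 4.26 (SE 0.36, adjusted p = 1.28e-06) in miniSOX. The size depends on the p31 library of NTC: without it the changes were 4.59, 4.78 and 5.14, and within the second wave 2.76, 3.08 and 3.38.

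In SL the low Itga3 of NTC was not seen. The gene was 904 and 777 in NTC, 444 and 515 in SOX2, 1002 and 1086 in FNV and 1032 and 1018 in miniSOX, so SOX2 was the lowest of the 4 lines. Within NTC, Itga3 was 14.1-fold lower in 2i than in SL (log2 change -3.81, SE 0.33, adjusted p = 1.97e-06), a call kept under all alternatives. The difference between media of each line's change against NTC, added after these values were seen, was 4.74 (SE 0.45, adjusted p = 1.24e-05) for SOX2, 3.80 (SE 0.45, adjusted p = 3.38e-05) for FNV and 3.61 (SE 0.49, adjusted p = 0.000282) for miniSOX. In these added tests 9 of the 38 members passed for SOX2 (18.8% of all genes did), 13 for FNV (25.8%) and 6 for miniSOX (13.7%). In SL miniSOX exceeded SOX2 by 1.45 (SE 0.42, adjusted p = 0.0223), a call that ended with averaged pairs (adjusted p = 0.192), with no wave term (0.0655) and without any 1 of the 4 libraries (0.0545 to 0.0831).

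Itga6, the laminin receptor subunit that marks stem cells of many tissues, was high everywhere, between 1755 and 4306. In 2i it was 2799, 2896 and 1755 in NTC, 2919, 3014, 2240 and 2492 in SOX2, 4306, 4048, 3819 and 2781 in FNV and 3438 and 3481 in miniSOX. In each line with p libraries, p31 was lower than replicates 1 and 2. MiniSOX lay above NTC by 0.80 (SE 0.13, adjusted p = 0.000338), which without the wave term was 0.51 (adjusted p = 0.0924). In SL all 8 libraries lay between 2099 and 2659. Itga6 was higher in 2i than in SL by 0.89 in FNV (SE 0.12, adjusted p = 2.94e-05). Itga7, the laminin receptor subunit of muscle, stayed between 8 and 40 and was lower in SOX2 (8 and 12) than in NTC (35 and 37) in SL, by 1.77 on the log2 scale (SE 0.41, adjusted p = 0.0101). That call ended with averaged pairs (adjusted p = 0.285) and without NTC replicate 1, NTC replicate 2 or SOX2 replicate 1 (0.0531 to 0.0799).

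Itga5, the alpha subunit of the fibronectin receptor, followed Itga3 in 2i on a smaller scale. Its values were 593, 663 and 433 in NTC, 1389, 1496, 1178 and 1813 in SOX2, 1823, 1981, 1591 and 1694 in FNV and 1475 and 1399 in miniSOX. The lowest transduced library, 1178, lay above the highest NTC library, 663. Changes against NTC were 1.42 (SE 0.14, adjusted p = 9.26e-06), 1.70 (SE 0.14, adjusted p = 4.32e-07) and 1.51 (SE 0.19, adjusted p = 4.04e-05), and each call held under every alternative. In SL, NTC (764 and 722) and SOX2 (694 and 613) were close, FNV was 1142 and 841, and miniSOX, at 1482 and 1438, lay close to its values in 2i. MiniSOX exceeded SOX2 in SL by 1.37 (SE 0.22, adjusted p = 0.000598) under every alternative, and NTC by 1.18 (SE 0.22, adjusted p = 0.00193), which with averaged pairs gave an adjusted p of 0.0532. Itga5 was higher in 2i than in SL in SOX2 (1.26, SE 0.17, adjusted p = 4.15e-05) and in FNV (0.95, SE 0.17, adjusted p = 0.000423), and the change in miniSOX and NTC did not pass.

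Itgav, which pairs with several beta subunits to bind vitronectin, ranged only from 543 to 1356. In miniSOX it was higher in 2i (1222 and 1356) than in SL (585 and 543), by 1.19 (SE 0.17, adjusted p = 7.41e-05), and in FNV by 0.73 (SE 0.15, adjusted p = 0.00145). In SL miniSOX was lower than SOX2 (1028 and 779) by 0.59 on the log2 scale (SE 0.20, adjusted p = 0.0456), and that ended without SOX2 replicate 1 (adjusted p = 0.242), without either miniSOX library (0.0917 and 0.159) and with averaged pairs (0.144). Itga8, a receptor subunit for nephronectin, stayed between 53 and 117: in 2i it was 53, 68 and 63 in NTC and 99 and 117 in miniSOX, a change of 0.85 (SE 0.17, adjusted p = 0.00154; within the second wave adjusted p = 0.0851).

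Itga1, a collagen receptor subunit and the sole collagen-binding alpha among the members, was 110, 91 and 192 in NTC in 2i and 321, 329, 280 and 267 in FNV. FNV lay above NTC by 1.19 (SE 0.19, adjusted p = 0.000212), with no overlap, but within the second wave the change was 0.51 (adjusted p = 0.124). Against SOX2 (143, 136, 220 and 233) it was 0.74 higher (SE 0.18, adjusted p = 0.00693), which within the second wave was 0.27 (adjusted p = 0.414) and with averaged pairs 0.59 (adjusted p = 0.162). In SL the 8 libraries lay between 132 and 203.

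Itga9, a receptor subunit for tenascin and osteopontin, moved in opposite directions in the media. In 2i it was 31, 31 and 36 in NTC, 39, 39, 15 and 15 in SOX2, 6, 5, 8 and 4 in FNV and 11 and 15 in miniSOX, with FNV below every other library. In SL it was 53 and 49 in NTC, 87 and 98 in SOX2, 197 and 212 in FNV and 57 and 49 in miniSOX, with FNV above every other library. FNV against NTC was -2.28 in 2i (SE 0.30, adjusted p = 2.94e-05) and 1.98 in SL (SE 0.39, adjusted p = 0.00151; with averaged pairs adjusted p = 0.114), and the difference of these changes was -4.26 (SE 0.49, adjusted p = 2.71e-05). FNV against SOX2 was -1.94 in 2i (SE 0.27, adjusted p = 0.000131), or -1.25 (adjusted p = 0.139) within the second wave, where SOX2 was lower. Within FNV, Itga9 was 26.9-fold lower in 2i than in SL (SE of the log2 change 0.36, adjusted p = 1.37e-07), and this held under every alternative.

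Itga4, whose pairs bind fibronectin and Vcam1, lay between 42 and 125. The SL values were 103 and 99 in SOX2, 45 and 42 in FNV and 61 and 44 in miniSOX. Both falls from SOX2, by 1.20 (SE 0.32, adjusted p = 0.0146) and by 1.38 (SE 0.37, adjusted p = 0.0161), ended with averaged pairs (adjusted p = 0.277 and 0.163) and, for FNV, without any 1 of the 4 libraries (0.05 to 0.0831). For miniSOX the call also ended with no wave term (adjusted p = 0.0911), without either SOX2 library (0.0552 and 0.0524) or without miniSOX replicate 2 (0.0981).

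Among the alpha subunits of leukocytes, Itgam, part of the complement receptor of myeloid cells, passed in 11 of the 16 comparisons between groups. In 2i it was 14, 14 and 15 in NTC, 9, 16, 12 and 13 in SOX2, 33, 31, 32 and 32 in FNV and 54 and 45 in miniSOX. The 3 levels did not overlap: NTC with SOX2 lowest, then FNV, then miniSOX. FNV against NTC was 1.10 (SE 0.18, adjusted p = 0.000265), FNV against SOX2 1.31 (SE 0.17, adjusted p = 6e-05) and miniSOX against NTC 1.69 (SE 0.24, adjusted p = 0.000135), all kept under every alternative. In SL it was 19 and 14 in NTC, 72 and 57 in SOX2, 119 and 105 in FNV and 114 and 116 in miniSOX. The changes against NTC in SL were 1.91 (SE 0.24, adjusted p = 0.000125), 2.70 (SE 0.24, adjusted p = 1.93e-06) and 2.70 (SE 0.28, adjusted p = 1.94e-05).

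Itgam's identity is uncertain, because 3450 of its 5024 exonic bases (chromosome 7, 128062640 to 128118491, plus strand) also belong to Gm49368, an annotated protein-coding gene on the same strand. Of 6 markers of leukocytes, the 4 that were measured (Cd34, Laptm5, Coro1a and Ptprc) summed in SL to 529 to 600 in NTC, 710 to 715 in SOX2, 708 to 847 in FNV and 228 to 322 in miniSOX. In SL the sums thus stood above NTC in SOX2 and FNV, as Itgam did, and below it in miniSOX. In 2i they were 673 to 1178 in NTC, 1086 to 1435 in SOX2, 982 to 1364 in FNV and 997 to 1027 in miniSOX. Laptm5 was the largest part of these sums. In SL it was 424 to 499 in NTC, 469 to 513 in SOX2, 490 to 715 in FNV and 145 to 169 in miniSOX. Coro1a in SL was 11 to 13 in NTC, 9 to 11 in SOX2, 47 to 83 in FNV and 21 to 25 in miniSOX. The part of leukocytes in the values of Itgam was not tested. Ptprc, the common leukocyte antigen, was between 0 and 85 in all libraries. In SL it was 0 to 1 in NTC, 53 to 79 in SOX2, 0 to 65 in FNV and 1 to 85 in miniSOX. Cd34 in SL was 88 to 93 in NTC, 140 to 151 in SOX2, 70 to 85 in FNV and 47 to 57 in miniSOX. Itgal stayed between 19 and 53 and was higher in FNV (50 and 53) than in NTC (21 and 20) in SL, by 1.29 (SE 0.27, adjusted p = 0.00274; with averaged pairs adjusted p = 0.117). Itgae, at 13 to 51, passed in 0 of the 16 comparisons by limma, with an unadjusted p under 0.05 in 3.

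Itgb1, the common beta subunit, differed most in SL. There it was listed at 7307 in both NTC libraries, at 5475 and 5395 in SOX2, at 2954 and 3057 in FNV and at 3537 and 3580 in miniSOX. Equal values recur because the normalisation gives each rank nearly the same value. FNV was below NTC by 1.28 on the log2 scale (SE 0.17, adjusted p = 6.61e-05) under every alternative, below SOX2 by 0.85 (SE 0.17, adjusted p = 0.00246; with averaged pairs adjusted p = 0.16), and miniSOX was below NTC by 0.93 (SE 0.20, adjusted p = 0.00447; with averaged pairs adjusted p = 0.092). In 2i the order was different: 3536, 3647 and 4972 in NTC, 5475, 5475, 4581 and 3935 in SOX2, 4232, 4732, 4137 and 3514 in FNV and 3134 and 3135 in miniSOX. NTC fell by 0.83 from SL to 2i (SE 0.16, adjusted p = 0.0015; with averaged pairs adjusted p = 0.132).

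Itgb4, the partner of Itga6 in hemidesmosomes, was the integrin that depended most regularly on the medium. In 2i its values were 102, 140 and 84 in NTC, 283, 275, 253 and 319 in SOX2, 442, 443, 374 and 292 in FNV and 166 and 118 in miniSOX. In SL they were 67 and 50, 34 and 33, 128 and 78, and 40 and 23 in the same order of lines. Within each line the 2i libraries lay above the SL libraries, by 0.96 in NTC (SE 0.27, adjusted p = 0.0191), 3.17 in SOX2 (SE 0.27, adjusted p = 5.28e-07), 2.06 in FNV (SE 0.27, adjusted p = 2.52e-05) and 2.17 in miniSOX (SE 0.29, adjusted p = 5.07e-05). The call in NTC ended without replicate 2 of 2i (adjusted p = 0.0904), without replicate 2 of SL (0.162) and with averaged pairs (0.223).

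Between lines in 2i, Itgb4 was above NTC in SOX2 (1.44, SE 0.22, adjusted p = 0.000325) and FNV (1.88, SE 0.22, adjusted p = 1.23e-05) under every alternative. MiniSOX was below FNV by 1.31 (SE 0.27, adjusted p = 0.0114), which ended within the second wave (adjusted p = 0.141), with averaged pairs (0.0908) and without miniSOX replicate 2 (0.15). In SL, FNV exceeded SOX2 by 1.55 (SE 0.29, adjusted p = 0.00187; with averaged pairs adjusted p = 0.112). The difference of FNV from SOX2 in 2i minus that in SL was -1.11 (SE 0.36, adjusted p = 0.0397) and kept its call in 7 of 20 alternatives.

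Itgb3, the beta subunit of the vitronectin receptor, was 32, 29 and 65 in NTC, 89, 89, 65 and 73 in SOX2, 40, 41, 32 and 63 in FNV and 46 and 46 in miniSOX in 2i. The SL values were 91 and 113, 46 and 36, 136 and 177, and 194 and 206. SOX2 thus had the highest group mean of the 4 lines in 2i, 79 ± 12 (SD, n = 4), and the lowest in SL, 41 ± 7.07 (SD, n = 2). FNV against SOX2 was -0.86 in 2i (SE 0.24, adjusted p = 0.016) and 1.90 in SL (SE 0.34, adjusted p = 0.00126), and the difference between media was -2.77 (SE 0.41, adjusted p = 0.000453), which held in 19 of 20 alternatives and ended with averaged pairs (adjusted p = 0.079). The fall in 2i also ended within the second wave (adjusted p = 0.359), with averaged pairs (0.174) and without SOX2 replicate 1 or 2 (0.0601 and 0.0599). From SL to 2i the gene fell in FNV by 1.93 (SE 0.31, adjusted p = 0.00017) and in miniSOX by 2.10 (SE 0.34, adjusted p = 0.000251).

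Itgb7, the beta subunit of lymphocyte homing receptors, was low in 2i and higher in SL. It was 8 to 62 in the 13 libraries in 2i, and in SL 112 and 57 in NTC, 251 and 392 in SOX2, 104 and 73 in FNV and 115 and 171 in miniSOX. From SL to 2i it fell by 2.99 in SOX2 (SE 0.42, adjusted p = 5.9e-05), by 2.59 in miniSOX (SE 0.46, adjusted p = 0.000562) and by 1.79 in NTC (SE 0.43, adjusted p = 0.00741). The call in NTC ended without NTC replicate 1 of SL (adjusted p = 0.119) and with averaged pairs (0.097). FNV against SOX2 in SL was -1.84 (SE 0.46, adjusted p = 0.0114), ended without SOX2 replicate 2 (0.0974), without FNV replicate 2 (0.0959) and with averaged pairs (0.196). The difference between media was 2.43 (SE 0.57, adjusted p = 0.00761; with averaged pairs adjusted p = 0.154).

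Itgb8, which with Itgav activates latent TGF-beta, was listed at 0 in all 10 transduced libraries in 2i and at 16, 0 and 97 in NTC. In SL it was present in every library: 58 and 78 in NTC, 31 and 41 in SOX2, 29 and 39 in FNV and 63 and 65 in miniSOX. Groups at 0 give no fold. The difference between media passed in SOX2, FNV and miniSOX (adjusted p = 0.000724, 0.000845 and 0.00147). Itgb5, another partner of Itgav, was 403, 467 and 681 in NTC and 814 to 1125 in the 10 transduced libraries in 2i, against 805 and 623 in NTC and 293 to 543 in the 6 transduced libraries in SL. Its rise over NTC in 2i in SOX2, 0.79 (SE 0.19, adjusted p = 0.00554), ended within the second wave (adjusted p = 0.152) and with averaged pairs (0.0592). That in miniSOX, 0.70 (SE 0.24, adjusted p = 0.0427), ended within the second wave (0.223), with averaged pairs (0.116) and without NTC replicate 1 or 2 or either miniSOX library (0.0764 to 0.159). Its rise from SL to 2i in SOX2, 1.20 (SE 0.22, adjusted p = 0.000512), held under every alternative.

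**Figure D4:**
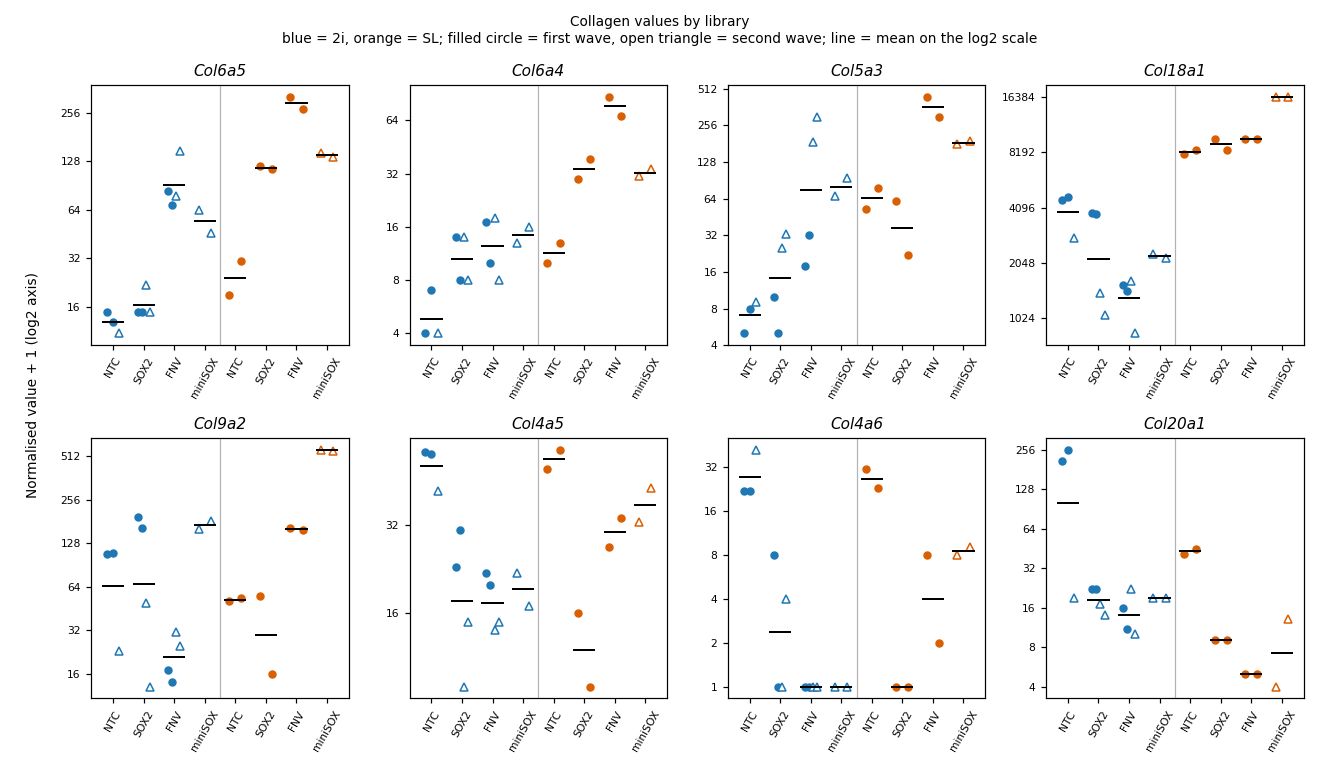
Values plus 1 (vertical axes, log2 scale) of 8 collagen genes in each of the 21 libraries, by line, with 2i in blue and SL in orange, circles for the first wave and triangles for the second, and a line at the mean on the log2 scale. Col6a5 lies at 10 to 21 in NTC and SOX2 in 2i and at 45 to 148 in FNV and miniSOX, and Col20a1 reaches 209 and 254 only in the first-wave NTC libraries in 2i.

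Among the collagens, Col6a5, a beaded-filament chain of the collagen VI family, passed in 13 of the 16 comparisons, the most of any member. In 2i it was 14, 12 and 10 in NTC, 14, 14, 21 and 14 in SOX2, 83, 68, 77 and 148 in FNV and 63 and 45 in miniSOX. In SL it was 18 and 30 in NTC, 118 and 114 in SOX2, 319 and 267 in FNV and 142 and 134 in miniSOX. In both media FNV was highest and NTC lowest or level with the lowest. FNV exceeded NTC by 2.78 in 2i (SE 0.25, adjusted p = 9.08e-07) and 3.59 in SL (SE 0.33, adjusted p = 2.64e-06), and exceeded SOX2 by 2.46 in 2i (SE 0.23, adjusted p = 3.92e-06), each under every alternative. SOX2 exceeded NTC in SL by 2.27 (SE 0.33, adjusted p = 0.000457), which with averaged pairs gave an adjusted p of 0.102, and the difference between media of this change was -1.95 (SE 0.41, adjusted p = 0.00498; with averaged pairs adjusted p = 0.18). From SL to 2i Col6a5 fell by 0.98 in NTC (SE 0.31, adjusted p = 0.0304), a call that ended with averaged pairs (adjusted p = 0.254), with no wave term (0.0544), at a pseudocount of 10 (0.0636) and without NTC replicate 2 of SL (0.281), replicate 2 of 2i (0.061) or p31 (0.066). The fall in miniSOX, -1.36 (SE 0.33, adjusted p = 0.00528), ended without miniSOX replicate 2 of 2i (0.0618). In 2i miniSOX exceeded SOX2 by 1.61 (SE 0.30, adjusted p = 0.00272), which ended within the second wave (0.0655) and without miniSOX replicate 1 (0.0516).

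Col6a4, the neighbouring gene, lies 28810 bases from Col6a5 on chromosome 9, on the same minus strand. Its values were lower: 3 to 17 in the 13 libraries in 2i, and in SL 9 and 12 in NTC, 29 and 38 in SOX2, 86 and 67 in FNV and 30 and 33 in miniSOX. As with Col6a5, FNV was highest and NTC lowest in SL. FNV exceeded NTC in SL by 2.75 (SE 0.46, adjusted p = 0.000505) and fell by 2.55 from SL to 2i (SE 0.43, adjusted p = 0.000235), both under every alternative. The rise over NTC in SL was 1.58 in SOX2 (SE 0.46, adjusted p = 0.0328) and 1.66 in miniSOX (SE 0.54, adjusted p = 0.0448). Both calls ended with averaged pairs (adjusted p = 0.358 and 0.21) and without any 1 of the 4 libraries compared (0.0763 to 0.173 and 0.0768 to 0.171), and that of miniSOX also at a pseudocount of 0.1 (0.055). In SOX2 the fall from SL to 2i was 1.62 (SE 0.43, adjusted p = 0.00636) and ended with averaged pairs (adjusted p = 0.0966) and without SOX2 replicate 2 of SL (0.0605).

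Of the basement-membrane network collagens, Col4a5 and Col4a6 form a head-to-head pair on the X chromosome, 1308 bases apart on opposite strands. Col4a6 was 21, 21 and 41 in NTC in 2i, 7, 0, 0 and 3 in SOX2, and listed at 0 in all 4 FNV and both miniSOX libraries (adjusted p against NTC = 0.00295, 0.000145 and 0.00207). The call in SOX2 ended within each wave alone (adjusted p = 0.058 in the first and 0.0837 in the second). The SL values were 30 and 22 in NTC, 0 and 0 in SOX2, 7 and 1 in FNV and 7 and 8 in miniSOX. Col4a5 was 56, 55 and 41 in NTC in 2i and 8 to 30 in the 10 transduced libraries, and in SL 49 and 57 in NTC, 15 and 8 in SOX2, 26 and 33 in FNV and 32 and 42 in miniSOX. For both genes NTC had the highest values in each medium, with no overlap with any transduced library. Against NTC in 2i, Col4a5 was lower by 1.41 in SOX2 (SE 0.26, adjusted p = 0.00125) and by 1.43 in FNV (SE 0.26, adjusted p = 0.000592), and within the second wave the adjusted p was 0.0556 and 0.0633. In SL, SOX2 was lower by 2.17 (SE 0.34, adjusted p = 0.000896; with averaged pairs adjusted p = 0.108), and miniSOX exceeded SOX2 by 2.41 (SE 0.40, adjusted p = 0.000832) under every alternative.

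Col8a1, a network collagen of blood vessel walls and the cornea, was listed at 0 in 9 of the 13 libraries in 2i and reached at most 26 there. In SL it was 84 and 82 in NTC, 20 and 31 in SOX2, 32 and 42 in FNV and 91 and 96 in miniSOX. It passed as lower in 2i in every line, although in SOX2 the p21 library (26) overlapped the SL libraries. The adjusted p was 0.00529 in FNV (0.0998 with averaged pairs) and 0.00309 in miniSOX, the latter call held under every alternative.

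Col18a1 was the most abundant collagen of the set and was lower in 2i. In 2i it was 4525, 4669 and 2800 in NTC, 3820, 3771, 1414 and 1065 in SOX2, 1554, 1439, 1627 and 848 in FNV and 2295 and 2191 in miniSOX. The SL values were 8025 and 8467 in NTC, 9720 and 8467 in SOX2, 9720 in both FNV libraries and 16427 in both miniSOX libraries. All 8 SL libraries lay above all 13 libraries in 2i. The change from SL to 2i passed in SOX2 (-1.61, SE 0.29, adjusted p = 0.000417), FNV (-2.41, SE 0.29, adjusted p = 1.22e-05) and miniSOX (-2.87, SE 0.32, adjusted p = 7.76e-06) under every alternative, and not in NTC. Set against the change in NTC, the change in FNV differed by -1.64 (SE 0.40, adjusted p = 0.00737) and that in miniSOX by -2.10 (SE 0.43, adjusted p = 0.00537). Both ended with averaged pairs (adjusted p = 0.183 and 0.106) and with no wave term (0.0626 and 0.124). In SL miniSOX exceeded NTC by 1.91 (SE 0.37, adjusted p = 0.0026), a value that includes a wave term learnt in 2i: without that term it was 0.99 (adjusted p = 0.183), and with averaged pairs the adjusted p was 0.0817. In 2i FNV against NTC was -1.40 (SE 0.24, adjusted p = 0.000351), and within the second wave -1.25 (adjusted p = 0.0686).

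Col5a3, a fibril-forming chain of the collagen V family, had the lowest values in NTC in 2i. There it was 4, 7 and 8, against 9, 4, 24 and 32 in SOX2, 17, 31, 185 and 299 in FNV and 66 and 93 in miniSOX. Within FNV the second-wave libraries (185 and 299) stood far above the first-wave libraries (17 and 31). FNV exceeded NTC by 3.05 (SE 0.51, adjusted p = 0.000244): first-wave libraries alone gave 1.92, second-wave libraries 4.71, and the fit without the p31 library of NTC 2.24. In SL the gene was 52 and 78 in NTC, 60 and 21 in SOX2, 438 and 297 in FNV and 178 and 190 in miniSOX. FNV exceeded SOX2 there by 3.30 (SE 0.66, adjusted p = 0.00274), or by 2.57 without SOX2 replicate 2 and 4.04 without SOX2 replicate 1, and the call ended with no wave term (adjusted p = 0.0639) and with averaged pairs (0.0922). NTC was 14.9-fold lower in 2i than in SL (log2 change -3.89, SE 0.62, adjusted p = 0.000398) under every alternative. MiniSOX against FNV in SL, -3.09 (SE 0.77, adjusted p = 0.0155), became -0.97 (adjusted p = 0.617) with no wave term.

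Of the other fibril-forming members, Col2a1, the collagen of cartilage, was 5 to 33 in 2i and 20 to 58 in SL. It passed as lower in 2i in every line, in NTC at 10, 9 and 12 against 20 and 24 in SL. It was lower in 2i by 1.98 in SOX2 (SE 0.38, adjusted p = 0.000621), by 2.08 in FNV (SE 0.38, adjusted p = 0.000434) and by 1.91 in miniSOX (SE 0.41, adjusted p = 0.00225), and with averaged pairs the adjusted p was 0.0525 in SOX2 and 0.054 in FNV. Col11a1 varied little, 44 to 145, and was higher in 2i in miniSOX (107 and 97 against 44 and 57), by 1.01 (SE 0.25, adjusted p = 0.00543), or 0.83 (adjusted p = 0.0628) without miniSOX replicate 1 of SL. Col27a1 lay between 4 and 63, the highest value being that of NTC p31. Col24a1, at 0 to 54, passed in 0 of the 16 comparisons by limma, with an unadjusted p under 0.05 in 0.

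The FACIT collagens sit on the surface of fibrils, and Col9a2 and Col9a3 are chains of collagen IX. Col9a2 was highest in miniSOX in SL, at 566 and 559, against 50 and 52 in NTC, 54 and 15 in SOX2 and 161 and 156 in FNV. MiniSOX exceeded NTC by 4.74 (SE 1.03, adjusted p = 0.00542) and SOX2 by 5.55 (SE 1.03, adjusted p = 0.00179); with no wave term these were 3.44 and 4.25. The call against NTC ended with averaged pairs (adjusted p = 0.0823), and that against SOX2 was 4.65 without SOX2 replicate 2 and 6.44 without replicate 1. In 2i it split by wave within lines: 106, 109 and 22 in NTC, 193, 163, 48 and 12 in SOX2, 16, 13, 30 and 24 in FNV and 160 and 182 in miniSOX. The difference of FNV from SOX2 in 2i minus that in SL was -4.12 (SE 1.08, adjusted p = 0.0145), and ended with averaged pairs (adjusted p = 0.279), without SOX2 replicate 2 of SL (-3.23, adjusted p = 0.0893) and without FNV replicate 2 of SL (0.051). Col9a3 was 58, 68 and 9 in NTC in 2i and 1 to 29 in all other libraries.

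Col20a1, another FACIT collagen, was 209 and 254 in the first-wave NTC libraries in 2i, 18 in NTC p31 and 9 to 21 in the 10 transduced libraries. NTC p31 thus lay inside the range of the transduced lines. The SL values were 40 and 44 in NTC and 3 to 12 elsewhere, and FNV was lower than NTC by 3.10 (SE 0.79, adjusted p = 0.00873; with averaged pairs adjusted p = 0.211). Col14a1, which spaces fibrils in skin and tendon, was 31 and 36 in FNV against 2 and 6 in NTC in SL, 2.91 higher (SE 0.56, adjusted p = 0.00144), or 2.30 and 3.52 without NTC replicates 1 and 2, and held under every alternative. In miniSOX, Col12a1 stood at 2 and 0 under 2i against 34 and 41 under SL, a log2 change of -4.47 (SE 1.26, adjusted p = 0.0132) that ended without miniSOX replicate 2 of 2i (adjusted p = 0.108) and without either SL library (0.0541 and 0.0686). Col22a1 stayed between 4 and 26.

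Col17a1, the transmembrane collagen of hemidesmosomes, where Itgb4 also sits, was 6, 5 and 7 in NTC in 2i, 20, 11, 19 and 31 in SOX2, 51, 58, 62 and 30 in FNV and 33 and 32 in miniSOX. Every transduced library exceeded every NTC library. The changes were 1.49 in SOX2 (SE 0.33, adjusted p = 0.0039; within the second wave adjusted p = 0.105), 2.80 in FNV (SE 0.33, adjusted p = 1.16e-05) and 2.13 in miniSOX (SE 0.43, adjusted p = 0.00205), the last pair under every alternative. In SL its values were 9 to 32. Col26a1 was 170 and 161 in miniSOX in 2i and 122 and 93 in SL, above SOX2 by 3.11 in 2i (SE 0.66, adjusted p = 0.00632) and by 2.95 in SL (SE 0.85, adjusted p = 0.0227). In 2i this ended without miniSOX replicate 1 (adjusted p = 0.0561) or 2 (0.0529), and in SL with averaged pairs (0.138), without SOX2 replicate 2 (a change of 2.13, adjusted p = 0.15; 3.76 without SOX2 replicate 1) and without either miniSOX library (0.0937 and 0.0596). Col7a1, the anchoring fibril collagen, was 65 and 36 in miniSOX in SL and 1 to 22 in all other libraries.

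**Figure D5:**
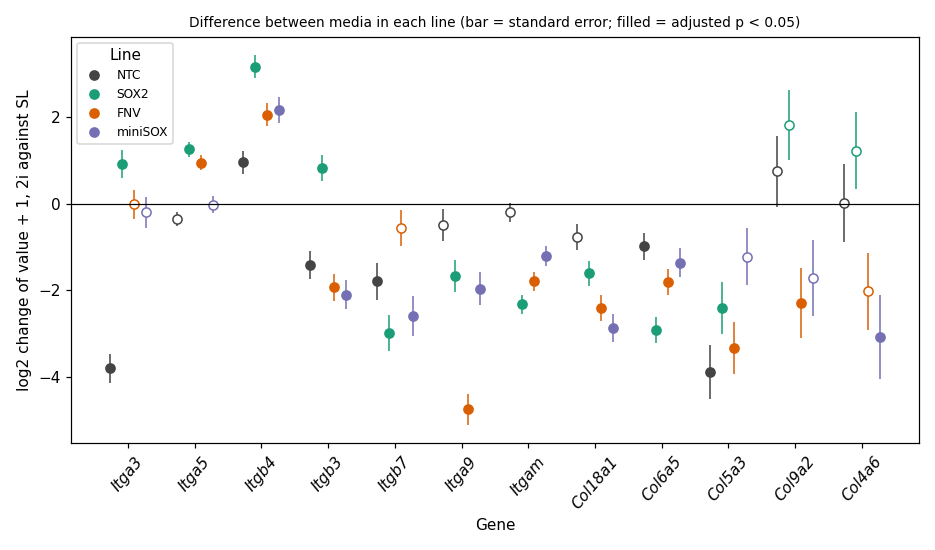
Log2 change of value + 1 between 2i and SL (vertical axis, above 0 means higher in 2i) of 12 genes in each line, with the standard error as a bar and filled points where the adjusted p is under 0.05. Itgb4 lies above 0 in all 4 lines, Itga3 lies at -3.81 in NTC alone, and Col18a1 and Col6a5 lie below 0 in all 4.

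Some fibroblast and trophectoderm markers moved with some of these values, and others did not. The 12 fibroblast or feeder markers, which include Col1a1, Col1a2 and Col3a1, summed to 1486 to 4411 in NTC and 264 to 435 in FNV and miniSOX in 2i, mostly through Vim, and in SL to 2200 to 2380 in miniSOX and 889 to 1490 in the other lines. Lum was listed at 0 in all SL libraries. Col18a1, Col9a2, Col7a1 and Col8a1 were at their highest in miniSOX in SL. Fibroblast markers did not all move together there. Tagln was 583 to 599 (31 to 78 in the other lines), Acta2 373 to 442 (42 to 115) and Col1a1 221 to 325 (23 to 55). Col1a2 was 175 to 192 (40 to 109) and Postn 219 to 240 (69 to 215). Vim, at 339 to 343, was below NTC (855 to 880) and SOX2 (550 to 732). Thy1, at 103 to 105, was above NTC (4 to 5) and SOX2 (27 to 40) and below FNV (523 to 530). Pdgfrb, Fbn1, Col3a1 and Dcn lay below another line or overlapped it. In miniSOX in SL 8 trophectoderm markers summed to 16056 to 16172 (1620 to 9455 in the others), mostly through Krt8 (8024 to 8269) and Krt18 (5475). Krt7 (1149 to 1201), Eomes (296 to 302), Elf5 (50 to 60) and Gata3 (33 to 40) were also highest there among the lines in SL. In the other lines in SL they reached at most 564, 150, 31 and 22. Cdx2 was 0 to 1 in miniSOX in SL, and Tfap2c was 825 to 1028, against 943 to 1040 in FNV. The 6 measured of 10 markers of extraembryonic endoderm summed to 4512 to 5461 in FNV and 382 to 667 in NTC in 2i, mostly through Dab2. The part of these cells in the results was not tested, and fewer cells of a type cannot be told apart from less RNA per cell in bulk samples.

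Several integrin ligands of the matrix and the cell surface were higher than NTC in the transduced lines in 2i. The list named matrix ligands held laminin chains, nidogens, fibronectin, osteopontin and others, among them the cell-surface proteins Icam1, Vcam1 and Cdh1. Of 24 measured of 27 listed, 14 were higher in SOX2 than in NTC in 2i (58.3%, beside 14.4% of all genes) and 1 lower (4.17%, beside 14.3%). FNV had 14 higher (58.3%, beside 19.7%) and 2 lower (8.33%, beside 20%), and miniSOX 7 higher (29.2%, beside 14.3%) and 2 lower (8.33%, beside 13.5%). The median changes were 0.61, 0.84 and 0.37 beside 0.02, -0.01 and -0.01 over all genes. Nid1, Nid2, Spp1, Mfge8 and Icam1 were higher than NTC in 2i in each of the 3 transduced lines. In SL, SOX2 had 1 higher (4.17%, beside 7.35%) and 10 lower (41.7%, beside 7.63%), FNV 4 higher (16.7%, beside 14.2%) and 3 lower (12.5%, beside 15.8%), and miniSOX 3 higher (12.5%, beside 9.44%) and 1 lower (4.17%, beside 10.2%). From SL to 2i, 5 rose in NTC (20.8%, beside 11.9%), 15 in SOX2 (62.5%, beside 22.3%), 14 in FNV (58.3%, beside 20.3%) and 7 in miniSOX (29.2%, beside 17.0%). In the same order of lines 3, 2, 3 and 3 fell (12.5%, 8.33%, 12.5% and 12.5%, beside 12.8%, 22.5%, 20.4% and 16.4%).

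Integrin adaptors and collagen-processing genes moved both ways in 2i. Of 25 adaptors and signalling genes (talins, kindlins, parvins, focal adhesion kinases and others), 4 were higher than NTC in SOX2 (16%, beside 14.4% of all genes) and 2 lower (8%, beside 14.3%). In FNV 9 were higher (36%, beside 19.7%) and 5 lower (20%, beside 20%), and in miniSOX 4 higher (16%, beside 14.3%) and 4 lower (16%, beside 13.5%), with medians between -0.03 and 0.08. Apart from the 9 higher in FNV, these shares were near those of all genes or below them. Of 17 measured of 26 collagen-processing genes (hydroxylases, cross-linking enzymes and chaperones), 6 were higher (35.3%, beside 14.4%) and 5 lower (29.4%, beside 14.3%) in SOX2. FNV had 3 higher (17.6%, beside 19.7%) and 6 lower (35.3%, beside 20%), and miniSOX 4 higher (23.5%, beside 14.3%) and 4 lower (23.5%, beside 13.5%). Plod2, a lysyl hydroxylase, was lower than NTC in 2i in each transduced line.

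Among metalloproteinases and their inhibitors, Timp2, Mmp2, Mmp15, Mmp17 and Mmp23 were higher than NTC in 2i in all 3 transduced lines. Of 13 measured of 17, 6 were higher than NTC in SOX2 (46.2%, beside 14.4% of all genes), 7 in FNV (53.8%, beside 19.7%) and 6 in miniSOX (46.2%, beside 14.3%). By limma 0, 3 and 1 were lower (0%, 23.1% and 7.69%, beside 14.3%, 20% and 13.5%), with 0 in SOX2 also at an unadjusted p under 0.05. The medians were 0.72, 1.74 and 1.22. The 7 collagens outside the rule split in 2i: Col4a1, Col4a2 and Col1a2 were lower than NTC in each transduced line, and Col1a1, Col5a1 and Col5a2 higher. Of these 7, 5 were lower in 2i than in SL in NTC (71.4%, beside 12.8%), 3 in SOX2 (42.9%, beside 22.5%), 4 in FNV (57.1%, beside 20.4%) and 4 in miniSOX (57.1%, beside 16.4%).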

How the data were processed

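RNA of 21 libraries of 2TS22C cells was selected on oligo(dT) beads and copied with random hexamers, per the labels' protocols. RSEM and Bowtie2 2.0 were used with mm10, per the submitters' processing notes, while for strand use the sources used here give nothing. The deposited values are a score: whole numbers the authors had normalised between libraries, whose sorted values differ by at most 3 between any 2 libraries, with 66.3% of ranks identical in all. Such values keep ranks, not depth, and no interval that needs depth was computed. Every gene exceeds 20 in at least 2 libraries. Column names assigned 16 columns to a sample and 5 (p21 and p31) to a group only, and 0 columns were left unassigned.

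The test was limma 3.58.1 (R 4.3.3) with trend and robust options on log2(value + 1), with a term for each group and for the wave, over all 16443 genes (12 residual degrees of freedom). The scale understates changes of low genes. In SL the wave term rests on 2i. A gene passed at a Benjamini-Hochberg adjusted p under 0.05. A count test was not used because the values are not counts. Comparisons were the 12 line pairs within media, the 4 between media within a line, and, for FNV against SOX2, its 2i minus SL difference; such differences of each line against NTC were added after values were seen.

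Members and lists were chosen with earlier results of these data known. Full values are given mainly for members that passed, whose libraries did not overlap and whose higher group averaged 20 or more, at most the 6 integrins and 6 collagens with the smallest adjusted p per comparison; others are given by values or ranges, some chosen after their values were seen. The lists were matrix ligands, integrin adaptors, collagen processing, metalloproteinases and the collagens outside the rule, with markers of pluripotent cells, fibroblasts, extraembryonic endoderm, trophectoderm, leukocytes and endothelium. The 5 endothelial markers summed to 1606 to 5561 per library.

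Positions, exon lengths and coding sequences are those of GENCODE M21 (GRCm38, mm10), in which all 38 identifiers were found. The fitting script was tested on simulated data. Figures were drawn with matplotlib 3.10.9.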

Additional observations from a re-analysis of the deposited data

Results flagged for a closer look

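Each of the 38 genes was checked in the groups of 4 libraries, SOX2 and FNV in 2i, for a library standing apart from the other 3. Of 76 sets of 4 values, 5 were flagged. No rate by chance is set beside this, because each group joins 2 waves and some values are tied. Col6a5 was 21 in the p21 library of SOX2 in 2i and 14 in the other 3. Col8a1 was 26 in the same p21 library and 0 in the other 3, and 16 in the p31 library of FNV in 2i and 0 in the other 3. Itgb5 was 1098 in the p31 library of SOX2 in 2i and 814 to 839 in the others, and Col7a1 was 22 in the p31 library of FNV in 2i and 6 or 7 in the others. All 5 values came from second-wave libraries.

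The change of FNV against SOX2 differed between 2i and SL, by the test of the difference itself, for 9 members. It was 2.43 for Itgb7, -1.11 for Itgb4, -2.77 for Itgb3, -3.08 for Itga9, -4.12 for Col9a2, 0.91 for Itga1, 0.63 for Itgb1, -1.11 for Itgal and -1.35 for Col4a5 on the log2 scale. With first-wave pairs averaged all 9 calls ended, with adjusted p from 0.079 for Itgb3 to 0.451 for Itga1. Itgb7, Itgb3 and Itga9 kept the call in the other 19 alternatives, and Itga1 and Itgb4 lost it in 13 of 20.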

How the results depend on the processing

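The 149 results by gene were chosen for passing with no overlap between libraries, which left little room for a change of direction. Of 1912 recomputed values, none changed direction: 1619 stayed past the threshold, 293 did not, and 60 of the 149 results passed under every alternative. The calls kept were 77 of 149 with first-wave pairs averaged, 83 of 88 in the first wave, 37 of 59 in the second, 124 of 149 with no wave term, 143 and 147 of 149 at pseudocounts of 0.1 and 10, 149 of 149 with median centring and 103 of 104 above a mean of 50, which 19 of the 38 genes reach. Of 232 recounted totals 164 stayed within 1.5 times. Replicate numbers did not pair the samples (correlations of deviations from -0.0917 to 0.0858 over 28 pairs of groups, median -0.00717). With the replicate block 144 of 149 calls held, and the counts of members changed were 14, 22, 14, 11, 8 and 3 in 2i, 10, 10, 11, 12, 11 and 6 in SL, 11, 20, 21 and 21 between media and 8 for the difference between media.

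Counts of members changed that moved by more than 1.5 times follow, with the range over leaving out single libraries last. In 2i, SOX2 against NTC (14) gave 6 above a mean of 50, 6 in the second wave, 7 with averaged pairs and 8 to 15. FNV against NTC (22) gave 12 above a mean of 50, and miniSOX against NTC (14) 8 and 8 to 13. FNV against SOX2 (12) gave 4 in the second wave and 5 with averaged pairs, miniSOX against SOX2 (8) 4, 3 and 3 to 8, and miniSOX against FNV (4) 0, 0 and 0 to 6, and 1 with no wave term. In SL, SOX2 against NTC (10) gave 5 above a mean of 50, 19 in the first wave, 1 with averaged pairs and 5 to 6, and FNV against NTC (10) 5, 17 and 5. With averaged pairs miniSOX against NTC (11) gave 2 and 6 to 8, FNV against SOX2 (13) 0 and 5 to 9, miniSOX against SOX2 (11) 3 and 5 to 7, and miniSOX against FNV (7) 0 and 1 to 3. With no wave term FNV against SOX2 gave 7 and miniSOX against FNV 3. Between media, NTC (11) gave 7 with no wave term, 19 in the first wave, 2 with averaged pairs and 4 to 13. SOX2 (19) gave 12 above a mean of 50 and 8 with averaged pairs, FNV (21) 13 and 13, and miniSOX (19) 10 above a mean of 50. The difference between media (9) gave 4 with no wave term, 0 with averaged pairs and 4 to 10. Where limma gave 0, members at an unadjusted p under 0.05 numbered 10 in the second wave, 7 with averaged pairs and 6 without miniSOX replicate 2 for miniSOX against FNV in 2i, and with averaged pairs 10 for FNV against SOX2 in SL, 9 for miniSOX against FNV in SL and 5 for the difference between media. The mean of 50 tests fewer genes and averaging leaves fewer libraries; for the rest the cause was not tested.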
